A study of Homo sapiens with 18 samples.

Results

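RNA of SMARCAL1 knockout clone 1 was set against RNA of control cells in PLATE-seq, an assay in which messenger RNA is captured in the wells of a plate, tagged per well and sequenced as a pool at low depth. The comparison rests on 4 of the 18 libraries of the study, chosen by their titles, with 2 libraries of clone 1 and 2 of the control. The titles name the cells as MDA-MB-436, an established human line of triple-negative breast adenocarcinoma. The source names and cell line tags read differently, with MDA-MB-439 and MDA-MB-440 for clone 1 and MDA-MB-437 and MDA-MB-438 for the control, and the titles were followed here. The genotype labels are "SMARCAL1 knockout" for clone 1 and "Control" for the other group, and all cells were grown in DMEM with bovine growth serum and antibiotics. How the gene was disrupted, and whether the control is itself a clone, are not given in the sources used here. Clone 1 is 1 clonal line, so an effect of the lost gene and a trait of the clone cannot be told apart in this comparison. The labels call the libraries of a group biological replicates without naming separate cultures, so p-values measure only the spread between these libraries, which may be technical.

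Values of other groups were set beside these where a result needed them. Knockout clones 2 and 3, with the genotype label "SMARCAL1 knockout", and cells labelled "siRNA_Control" each had 2 PLATE-seq libraries. The label of the siRNA control names an siRNA, which the labels of clone 1 and the control do not. Differences of clone 1 from the siRNA control therefore carry that difference too. Cells labelled "siRNA_SMARCAL1" had another 2, used only to estimate the spread. The same clone 1 and a control also had 3 libraries each of TruSeq, a stranded total RNA assay, which share no library with PLATE-seq.

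SMARCAL1 is an annealing helicase that binds the single-stranded DNA binding protein RPA at stalled replication forks and remodels them. DNA that escapes from damaged chromosomes into the cytosol can be sensed by cGAS and STING, which switch on interferon genes through IRF3 and cytokine genes through NF-kappa-B. CD274 encodes PD-L1, the checkpoint ligand by which tumour cells restrain T cells. The series set SMARCAL1-deficient against proficient cells by their RNA. In triple-negative breast cancer cells, NF-kappa-B and AP-1 are well known to keep inflammatory cytokines such as IL1A and CXCL8 expressed.

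The clone 1 libraries held 1717358 and 1833653 counts, and the control libraries 890878 and 807872. Depth therefore went with the group in these 4 libraries, and its part in the differences below was not tested. At these depths 3 counts, taken as the floor for a gene with no counts, were worth 1.75 and 1.64 CPM (counts scaled to library size) in clone 1 and 3.37 and 3.71 CPM in the control, which covers counting error only. Mitochondrial transcripts took 32.3% and 31.5% of the counts in clone 1 and 31.7% and 30.2% in the control. Added spike-in RNA gave 577 and 17 counts in replicates 1 and 2 of clone 1, and 476 and 11 in replicates 1 and 2 of the control, so replicate number, not group, went with the spike-in counts. Replicates differed by more than counting noise, with a chi-square per degree of freedom of 8.35 in clone 1 and 6.46 in the control. Markers of the labelled cells were present, with VIM at 283 and 268 CPM in clone 1 and 309.7 and 249 CPM in the control, and ESR1 and PGR, the receptors that triple-negative cells lack, had no count in any of the 4. CDH1, the epithelial cadherin, stood at 26.7 and 9.28 CPM in clone 1 and 5.53 and 6.20 CPM in the control.

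The 13 leukocyte markers summed to 2.97 to 3.28 CPM in clone 1 and 3.72 to 7.74 CPM in the control, with PTPRC, CD3E and TYROBP at 0 in all 4 libraries. The 8 endothelial markers summed to 1.64 to 4.16 CPM in clone 1 and 0 in the control, with CDH5 and VWF at 0 throughout. The 10 fibroblast markers summed to 11.3 to 13.1 CPM in clone 1 and 1.11 to 6.20 CPM in the control, with DCN and LUM at 0 throughout. Clone 1 replicate 2 held the only PDGFRA counts of the 4, at 10.9 CPM. In such bulk RNA, fewer cells of a type and less RNA per cell cannot be told apart. Among the other libraries, replicate 2 of clone 3 stood apart, with the lowest median correlation to the rest (0.872).

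SMARCAL1 itself (chr2:216412414-216483053, plus strand, GRCh38), the targeted gene, gave 3 and 6 counts in clone 1 and 0 and 3 in the control. The ratio of clone 1 to control, scaled to library size, was 1.43 with an exact binomial 95% counting interval of 0.358 to 8.24. A lower transcript level in the clone was not detectable at this depth, and since transcripts of knocked-out genes often persist, these counts check neither the label nor the knockout. In the deeper TruSeq libraries SMARCAL1 stood at 13.3, 14.7 and 13.97 CPM in clone 1 and 13.9, 14.05 and 16.1 CPM in the control, which overlapped (-0.07, SE 0.11, adjusted p = 0.791). CD274 (chr9:5450503-5470566, plus strand) stood at 7.73 and 7.64 CPM in clone 1, against 12.2 and 2.48 CPM in the control. The control libraries lay on both sides of clone 1, and the log2 fold change of 0.04 (SE 0.79, edgeR adjusted p = 0.995) turned to -0.65 without control replicate 2. Its TruSeq value was -0.67 (SE 0.31, adjusted p = 0.261).

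Clone 1 and the control could not be separated gene by gene at the threshold used. Of 8595 genes tested by edgeR's quasi-likelihood test in 1 fit of all 12 PLATE-seq libraries, 0 (0%) passed a Benjamini-Hochberg adjusted p of 0.05, and the smallest adjusted p was 0.0706. At an unadjusted p under 0.05 there were 704 genes (8.19%), of which 397 were higher and 307 lower in clone 1. The typical error was wide, with a median SE of 0.58 on the log2 scale over all genes and 0.34 over genes at 50 CPM or more in the higher group. Of the 7 genes under an adjusted p of 0.1, IL7R, IL24, VGF, NSA2, DPP4 and WNT7B are given here, singled out after their values were seen. The count depended on the tool and the filter. limma-voom called 0, DESeq2 called 18 (9 higher, 9 lower), and edgeR with no filter on low counts called 36 (20 higher, 16 lower). Against the siRNA control edgeR called 7, among them IL7R, IL24 and WNT7B. Leaving out 1 library gave 2 calls without control replicate 1, 0 without control replicate 2, 2 without clone 1 replicate 1 and 3 without clone 1 replicate 2.

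Genes were next ranked by fold change among those with a mean of at least 50 CPM in the higher group and no overlap between the 2 groups, which 1134 of 2457 genes at that level met. Over all genes tested, 39.2% had groups that did not overlap, 20.8% with clone 1 higher and 18.4% with it lower. The ranking fixes the direction and the lack of overlap of what it selects. The 12 highest had log2 fold changes of 1.48 to 3.01 and the 12 lowest of -3.36 to -1.55. Adjusted p-values ran from 0.0706 to 0.378 for the highest and from 0.0706 to 0.494 for the lowest.

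DKK1, PLAU, EREG and LCN2 encode secreted proteins or ligands shed from the membrane. DKK1 (chr10:52314296-52318042, plus strand), a secreted inhibitor of WNT signalling, had 105 and 55.7 CPM in clone 1, against 11.1 and 8.68 CPM in the control. Both clone 1 libraries were far above the control, although they differed from each other by nearly as much as their lower value (log2 fold change 3.01, SE 0.67, adjusted p = 0.103). In the siRNA control DKK1 had 72.8 and 19.7 CPM, which overlapped clone 1. PLAU, the urokinase protease that activates plasminogen at the cell surface, had 243 and 157 CPM in clone 1 and 70.8 and 63.3 CPM in the control (1.58, SE 0.35, adjusted p = 0.108). EREG, a ligand of the EGF receptor, had 119 and 54.6 CPM in clone 1 and 35.4 and 24.8 CPM in the control (1.52, SE 0.47). LCN2, a lipocalin that binds iron-carrying siderophores and is made during inflammation, had 118 and 115 CPM in clone 1 and 39.8 and 43.4 CPM in the control. The replicates of LCN2 lay close together in both groups, and its log2 fold change was 1.48 (SE 0.41, adjusted p = 0.273). The siRNA control overlapped clone 1 for EREG too, at 63.99 and 61.8 CPM. It lay below both clone 1 libraries for PLAU, at 109 and 105 CPM, and LCN2, at 58.7 and 54.7 CPM.

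Among membrane proteins, IL7R (chr5:35852695-35879603, plus strand) had the joint smallest adjusted p. It encodes the interleukin-7 receptor alpha chain, which also forms the receptor for TSLP, and stood at 398 and 267 CPM in clone 1, against 111 and 103 CPM in the control (1.64, SE 0.31, adjusted p = 0.0706). Against the siRNA control, where it stood at 109.6 and 68.8 CPM, its difference passed the threshold (1.90, adjusted p = 0.00768). TMEM158, a membrane protein induced by Ras signalling, had 178 and 84.6 CPM in clone 1 and 38.7 and 44.7 CPM in the control (1.66, SE 0.38). TMEM14B had 61.8 and 141 CPM in clone 1 and 19.9 and 31.01 CPM in the control (2.00, SE 0.43). CTXN1, a small membrane protein first described in brain cortex, had 53.5 and 106 CPM in clone 1 and 19.9 and 37.2 CPM in the control. In all 4 of these genes both clone 1 libraries lay above both control libraries, as the ranking requires. The siRNA control overlapped clone 1 for TMEM158, at 75.4 and 112 CPM, and for CTXN1, at 62.2 and 61.1 CPM. For TMEM14B, at 55.2 and 59.7 CPM, it lay below clone 1, as for IL7R.

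The rest of the highest were of mixed function. DPYSL3, a cytoskeletal protein of growing neurites and migrating cells, was the tightest of them, with 79.03 and 80.3 CPM in clone 1 and 25.4 and 26.05 CPM in the control (1.63, SE 0.38, adjusted p = 0.149). EIF3K, a subunit of the initiation factor eIF3, rested on 1 library, with 84.98 and 399.7 CPM in clone 1 and 69.7 and 76.9 CPM in the control. Its log2 fold change of 1.73 was 0.22 without clone 1 replicate 2 and was -0.33 against the siRNA control. MGST2, a microsomal glutathione transferase, had 83.8 and 24.6 CPM in clone 1 and 14.4 and 14.9 CPM in the control, and its difference (1.88) was 0.76 without clone 1 replicate 1. The siRNA control, at 39.4 and 30.9 CPM, overlapped clone 1 for MGST2. Exons of MGST2 overlap those of MAML3 on the other strand, and with the strand setting of the counting not given, reads of such pairs could not be told apart. The same limit holds for PLAU with C10orf55 and for TMEM14B with MAK. RP11-431K24.4, a transcript for which no annotation was matched by symbol, had 103 and 239.7 CPM in clone 1 and 45.3 and 76.9 CPM in the control.

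**Figure D1:**
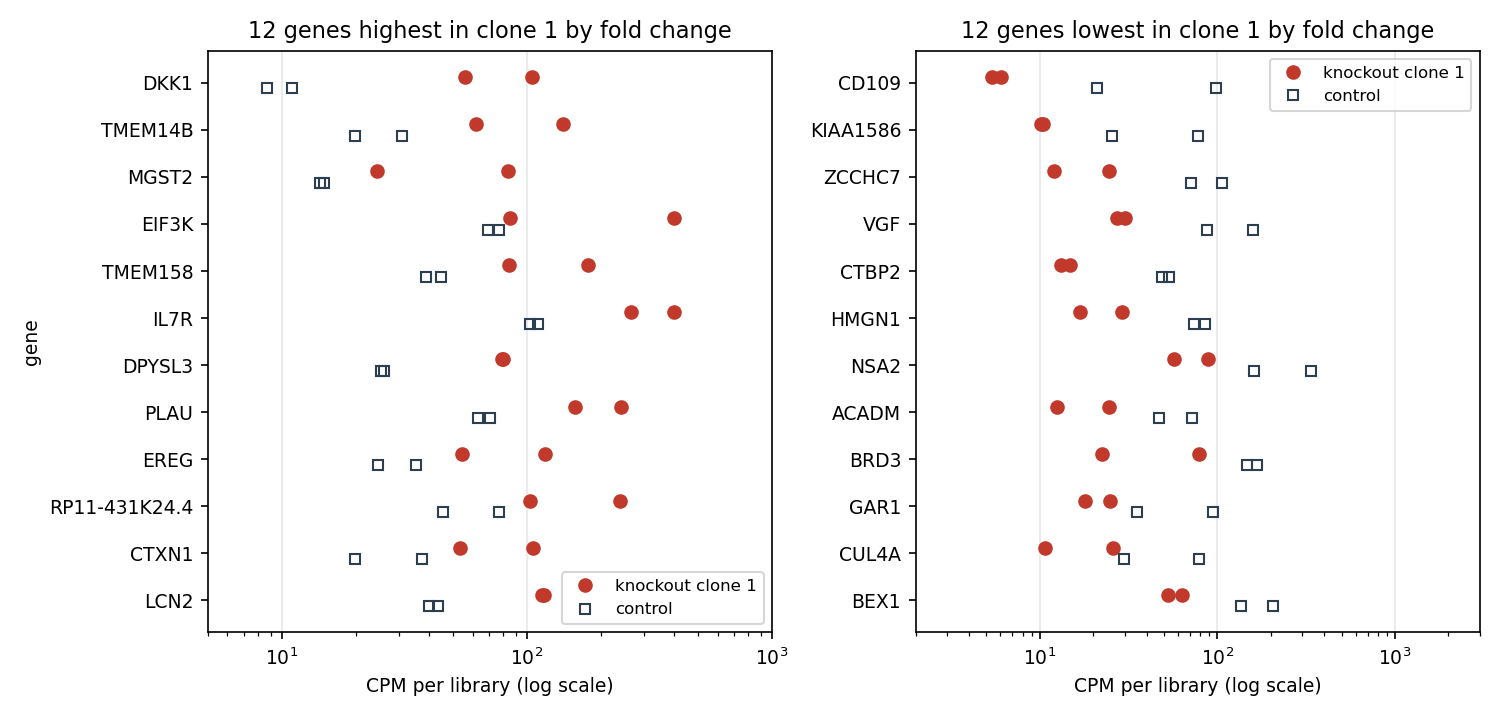
CPM on a log axis in each PLATE-seq library for the 12 highest and 12 lowest genes by fold change of clone 1 over control, with filled circles for the 2 clone 1 libraries and open squares for the 2 control libraries. DKK1 stands at 105 and 55.7 CPM in clone 1 and 11.1 and 8.68 CPM in the control, and CD109 at 5.35 and 6.01 CPM in clone 1 and 21.01 and 97.99 CPM in the control.

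At the other end of the ranking, VGF and CD109 encode a secreted and a surface protein. VGF (chr7:101162509-101165593, minus strand), a secreted neuropeptide precursor first found as a nerve growth factor target, had 30.3 and 27.3 CPM in clone 1, against 158 and 86.8 CPM in the control (-2.09, SE 0.40, adjusted p = 0.0706). CD109, a surface glycoprotein that restrains TGF-beta receptors, had 5.35 and 6.01 CPM in clone 1 and 21.01 and 97.99 CPM in the control. The control libraries of CD109 differed more from each other than the lower one did from clone 1, and against the siRNA control the log2 fold change of -3.36 turned to 0.74. BEX1, a small adaptor protein of neural cells and some tumours, had 62.99 and 52.97 CPM in clone 1 and 136 and 205 CPM in the control (-1.55, SE 0.34, adjusted p = 0.103).

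NSA2, GAR1 and ZCCHC7 have known roles in RNA and ribosome production. NSA2, a factor of large ribosomal subunit assembly, had 87.9 and 56.8 CPM in clone 1 and 160.4 and 337 CPM in the control (-1.78, SE 0.35, adjusted p = 0.0796). GAR1, a core protein of the snoRNPs that make pseudouridine, had 24.96 and 18.02 CPM in clone 1, 20.2 and 30.9 CPM in the siRNA control and 35.4 and 94.3 CPM in the control (-1.59 over the control and -0.26 over the siRNA control). ZCCHC7, a zinc knuckle protein of the nuclear TRAMP-like complex, had 24.36 and 12.01 CPM in clone 1 and 106 and 70.7 CPM in the control (-2.28, SE 0.57). Exons of NSA2 overlap GFM2 on the other strand, while ZCCHC7 and GAR1 overlap no annotated exon of another gene.

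HMGN1, CTBP2 and BRD3 act on chromatin. HMGN1, which binds nucleosomes, had 29.1 and 16.9 CPM in clone 1, 29.8 and 21.1 CPM in the siRNA control and 74.1 and 85.6 CPM in the control (-1.79 over the control and -0.14 over the siRNA control). CTBP2, a transcriptional corepressor, had 14.9 and 13.1 CPM in clone 1 and 48.7 and 53.3 CPM in the control, and its exons overlap ZRANB1. BRD3, a BET protein that reads acetylated histones, was uneven in clone 1, with 78.4 and 22.4 CPM there and 146 and 166 CPM in the control. Its log2 fold change of -1.63 was 0.23 against the siRNA control. The last 3 were ACADM, the medium-chain acyl-CoA dehydrogenase of fatty acid oxidation, CUL4A, the scaffold of a ubiquitin ligase, and KIAA1586. ACADM had 12.5 and 24.6 CPM in clone 1 and 71.9 and 47.1 CPM in the control, CUL4A 10.7 and 25.7 CPM in clone 1 and 78.5 and 29.8 CPM in the control, and KIAA1586 10.1 and 10.4 CPM in clone 1 and 25.4 and 78.1 CPM in the control. CUL4A shares exon sequence with PCID2 on the other strand and ACADM with RABGGTB on the same strand.

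IL24 and WNT7B, under an adjusted p of 0.1, lay below the level set for the ranking. IL24 (chr1:206897443-206904139, plus strand), a cytokine of the IL-10 family, had 5 and 6 counts or 2.97 and 3.28 CPM in clone 1, against 10 and 14 counts in clone 2, 111 and 135 in clone 3 and 13 and 28 counts or 14.4 and 34.7 CPM in the control. Its log2 fold change of -2.93 from the control (SE 0.56, adjusted p = 0.0706) became -3.90 against the siRNA control, past the threshold (adjusted p = 9.80e-04). TruSeq gave no second reading of IL24, which was too low there to be tested. Its TruSeq means were 0.286 CPM for clone 1 and 0.224 CPM for control cells, and the groups overlapped. WNT7B (chr22:45920362-45977129, minus strand), a WNT ligand, had 45.2 and 37.1 CPM in clone 1 and 3.32 and 2.48 CPM in the control (3.78, SE 0.79, adjusted p = 0.0951), and also passed against the siRNA control (4.68, adjusted p = 0.0179). IL24 was low and WNT7B high in both clone 1 libraries relative to all 4 libraries of the control and the siRNA control.

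The inflammatory cytokines and chemokines, signals that recruit and activate immune cells, had the highest median of the 30 lists with at least 3 members tested. No member of any list passed the threshold. Of 29 listed, 16 passed the filter on low counts and 8 had no count in the 4 libraries. At an unadjusted p under 0.05, 6 were higher and 0 lower in clone 1, beside 4.62% and 3.57% of all genes tested. Groups did not overlap, with clone 1 higher, for 10 of the 16, beside 20.8% of all genes. The median log2 fold change of the 16 was 0.74, beside 0.01 over all genes tested, and 13 were above 0. Against the siRNA control the median of the same 16 was 0.03, with 8 above 0, so the difference depended on which control was used. The part of the siRNA itself in this was not tested.

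IL1A (chr2:112773915-112784590, minus strand), an alarmin that signals through the IL-1 receptor, had 955 and 851 CPM in clone 1, against 338 and 484 CPM in the control, and 536 and 715 CPM in the siRNA control. Clone 1 lay above all 4 of those libraries (log2 fold change over the control 1.14, SE 0.28, adjusted p = 0.169), and DESeq2 called it (adjusted p = 0.0477 there). CCL2 (chr17:34255218-34257203, plus strand), which draws monocytes, had 41.6 and 25.7 CPM in clone 1 and 4.42 and 3.72 CPM in the control, from 70 and 47 counts in clone 1 and 4 and 3 in the control. Its ratio of counts was 7.99, with a counting interval of 3.76 to 20.3 (log2 fold change 3.01, SE 0.82, adjusted p = 0.273). LIF, an IL-6 family cytokine, had 38.6 and 26.2 CPM in clone 1 and 3.32 and 9.92 CPM in the control (2.30, SE 0.72). All 3 genes were separated from the control without overlap.

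The neutrophil chemokines CXCL8, CXCL1 and CXCL2 stood above the control without overlap. CXCL8 had 46.9 and 34.9 CPM in clone 1 and 17.7 and 13.6 CPM in the control (1.37, SE 0.49, adjusted p = 0.457). CXCL1 had 55.3 and 44.2 CPM in clone 1 and 28.8 and 12.4 CPM in the control (1.26, SE 0.54, adjusted p = 0.520). In the siRNA control CXCL8 had 30.7 and 28.1 CPM, below clone 1, and CXCL1 had 31.6 and 46.3 CPM, which overlapped clone 1. Their log2 fold changes over the siRNA control were 0.48 and 0.35. CXCL2 had 13.7 and 10.4 CPM in clone 1, 23.7 and 30.9 CPM in the siRNA control and 3.32 and 3.72 CPM in the control, so that clone 1 lay above one control and below the other. The same held for IL6, with 5.94 and 6.55 CPM in clone 1, 13.1 and 9.83 CPM in the siRNA control and 2.21 and 4.96 CPM in the control. CSF3, the granulocyte growth factor, had 796 and 602 CPM in clone 1, 1379.8 and 1503 CPM in the siRNA control and 616 and 537 CPM in the control, where clone 1 overlapped the control (log2 fold change 0.28). IL32, a cytokine found in humans and not in mice, had 339 and 369 CPM in clone 1, 345 and 378 CPM in the siRNA control and 185 and 256 CPM in the control. IL24, which was lower in clone 1 as given above, is not in this list. Of the 3 list members below 0, IL11, an IL-6 family cytokine, was the lowest, with 1.19 and 8.74 CPM in clone 1 and 5.53 and 19.8 CPM in the control, and its groups overlapped. CCL20, which draws dendritic cells and memory T cells, had 24.96 and 43.1 CPM in clone 1 and 21.01 and 24.8 CPM in the control, and CSF1, the macrophage growth factor, 8.32 and 9.28 CPM in clone 1 and 4.42 and 1.24 CPM in the control. IL1B, the secreted partner of IL1A, overlapped, with 188 and 209 CPM in clone 1 and 165 and 217 CPM in the control (0.06). CXCL2, IL6, CCL20, CSF1 and IL1B were chosen after their values were seen. In the control, CXCL2 rested on 3 and 3 counts, IL6 on 2 and 4 and CSF1 on 4 and 1, at or near the floor of 3 counts.

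**Figure D2:**
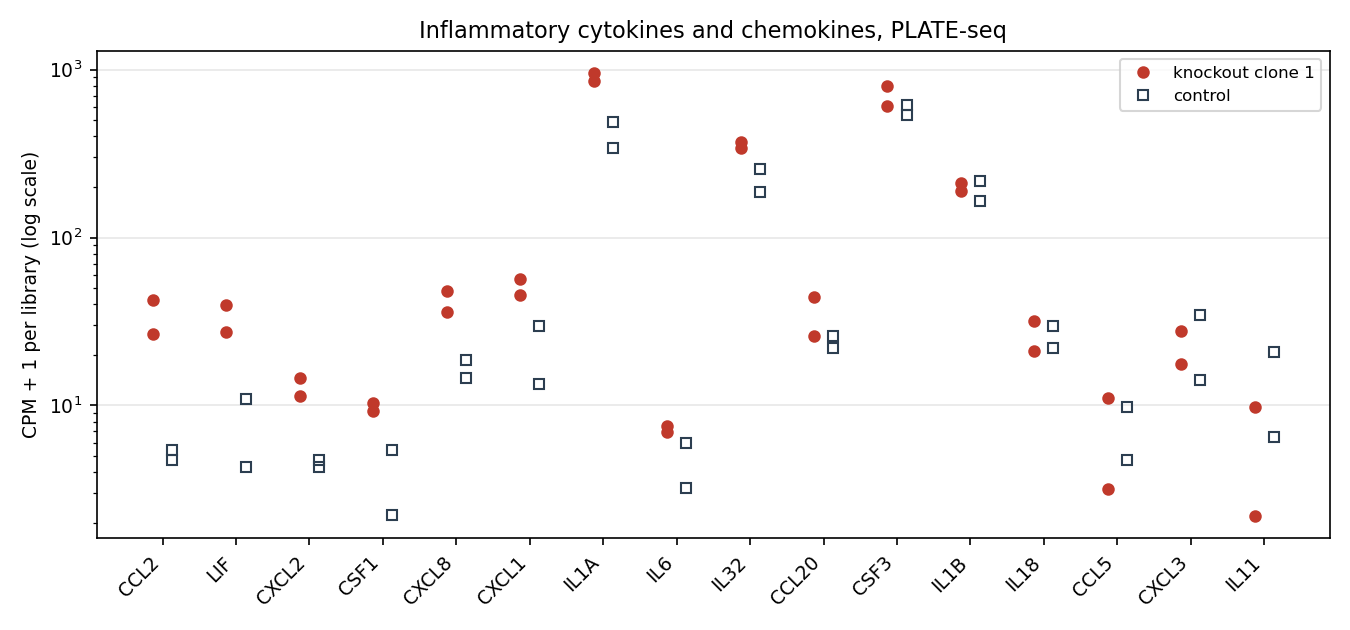
CPM plus 1 on a log axis in each PLATE-seq library for the 16 inflammatory cytokines and chemokines tested, ordered by fold change, with filled circles for clone 1 and open squares for the control. IL1A stands at 955 and 851 CPM in clone 1 and 338 and 484 CPM in the control, and IL11 at 1.19 and 8.74 CPM in clone 1 and 5.53 and 19.8 CPM in the control.

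The sequences just before LCN2, CXCL8 and CXCL1 are shown because clone 1 stood above the control in both assays and their promoters are known to answer to NF-kappa-B. For CXCL1, clone 1 overlapped the siRNA control, as given above. Each runs from 250 bases before to 50 after the RefSeq start on GRCh38.p14, plus strand, and covers chr9:128149203-128149502 for LCN2, chr4:73740319-73740618 for CXCL8 and chr4:73869143-73869442 for CXCL1. Capitals mark matches, on either strand, to GGAANNNCC, the core letters bound by NF-kappa-B, and to TGANTCA, called the AP-1 letters here. TGANTCA is looser than the AP-1 site, since it allows any base at the centre where that site has C or G.
LCN2: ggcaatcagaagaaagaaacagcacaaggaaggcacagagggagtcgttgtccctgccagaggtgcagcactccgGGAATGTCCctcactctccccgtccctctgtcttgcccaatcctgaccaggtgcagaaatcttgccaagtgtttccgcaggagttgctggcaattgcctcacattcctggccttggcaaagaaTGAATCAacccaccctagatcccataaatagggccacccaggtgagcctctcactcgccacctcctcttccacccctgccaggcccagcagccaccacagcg
CXCL8: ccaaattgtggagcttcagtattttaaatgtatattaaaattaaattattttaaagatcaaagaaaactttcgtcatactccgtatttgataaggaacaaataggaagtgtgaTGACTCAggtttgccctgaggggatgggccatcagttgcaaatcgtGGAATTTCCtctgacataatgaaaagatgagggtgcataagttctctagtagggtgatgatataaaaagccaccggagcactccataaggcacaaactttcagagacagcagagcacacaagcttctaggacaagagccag
CXCL1: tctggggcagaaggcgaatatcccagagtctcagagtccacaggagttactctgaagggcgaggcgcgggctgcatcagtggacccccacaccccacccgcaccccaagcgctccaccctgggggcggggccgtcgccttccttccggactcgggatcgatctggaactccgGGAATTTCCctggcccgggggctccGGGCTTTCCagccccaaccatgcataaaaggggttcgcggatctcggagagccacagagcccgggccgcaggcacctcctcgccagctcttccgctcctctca
LCN2 and CXCL8 each held 1 match of either kind, and the NF-kappa-B letters began 175 bases before the start of LCN2 and 91 before that of CXCL8. The AP-1 letters of CXCL8 read TGACTCA. Those of LCN2 read TGAATCA, with A at the centre, and so are not the AP-1 site. CXCL1 held 2 matches to the NF-kappa-B letters and none to the AP-1 letters. No pair of matches overlapped. Over 35116 RefSeq windows of this length, 20.05% held the NF-kappa-B letters and 7.709% the AP-1 letters, with any centre base counted. CXCL8 and CXCL1 lie near EREG on chromosome 4 (chr4:74365143-74388751, plus strand), another of the highest genes.

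NF-kappa-B targets and feedback inhibitors lay on both sides of 0. Of 27 listed, 25 were tested, with a median log2 fold change of 0.23, and a median of -0.28 against the siRNA control. At an unadjusted p under 0.05, 2 were higher and 1 lower, beside 4.62% and 3.57% of all genes tested. BCL3, a nuclear coactivator of the pathway, had 106 and 111 CPM in clone 1 and 54.2 and 49.6 CPM in the control (1.06, SE 0.33, adjusted p = 0.344). BIRC3, an inhibitor of apoptosis, had 16.04 and 10.9 CPM in clone 1, 10.5 and 14.04 CPM in the siRNA control and 3.32 and 0 CPM in the control, so that clone 1 overlapped the siRNA control (2.90 over the control and 0.13 over the siRNA control). NFKBIA, the inhibitor that NF-kappa-B switches on itself, had 279 and 292 CPM in clone 1 and 209 and 242 CPM in the control (0.34), whereas TNFAIP3, another feedback inhibitor, had 37.4 and 13.7 CPM in clone 1 and 32.1 and 45.9 CPM in the control (-0.61). NFKB1, a subunit of NF-kappa-B itself, was the lower one, with 4.75 and 14.2 CPM in clone 1 and 28.8 and 18.6 CPM in the control (-1.31, SE 0.63). BCL3, BIRC3, NFKB1 and TNFAIP3 were chosen after their values were seen, the first 3 for an unadjusted p under 0.05.

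Interferon-stimulated genes, the readout of interferon signalling, were in large part too low to test. Of 55 listed, 30 were tested, with a median of 0.29, and OAS1, MX1, IFI27 and IRF7 were among those below the filter. At an unadjusted p under 0.05, 2 were higher and 1 lower, beside 4.62% and 3.57% of all genes tested. OAS3, an antiviral oligoadenylate synthetase, had 201 and 198 CPM in clone 1 and 106 and 124 CPM in the control, without overlap (0.79, SE 0.28, adjusted p = 0.457). PSME1, a subunit of the interferon-inducible proteasome activator, had 111 and 111 CPM in clone 1 and 75.2 and 60.8 CPM in the control. IFITM2, a membrane protein that blocks virus entry, had 21.99 and 11.5 CPM in clone 1 and 38.7 and 42.2 CPM in the control (-1.27, SE 0.47), and its near-identical family member IFITM3 had 1500.5 and 1666 CPM in clone 1 and 1766 and 1178 CPM in the control (0.10). Reads of IFITM2 and IFITM3 may have been split between them in counting.

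The cytosolic sensing list had 19 of 27 members tested and a median of 0.23. At an unadjusted p under 0.05, 2 were higher and 0 lower, beside 4.62% and 3.57% of all genes tested. The sensor cGAS, listed as MB21D1, had 23.2 and 21.3 CPM in clone 1 and 7.74 and 18.6 CPM in the control (0.77, SE 0.61), and the adaptor STING, listed as TMEM173, 74.3 and 70.99 CPM in clone 1 and 89.6 and 54.6 CPM in the control (0.01, SE 0.37). TREX1, the exonuclease that clears cytosolic DNA, had no count in the 4 libraries. IRF3, the transcription factor below STING, had 56.5 and 76.99 CPM in clone 1 and 26.5 and 27.3 CPM in the control (1.31, SE 0.40, adjusted p = 0.334). Its exons overlap BCL2L12 on the other strand, and IRF3 was chosen with its values known. RNASEH2A and RNASEH2C are among the members of highest CPM in this list. Their ratios of counts of clone 1 to control were 0.785 (counting interval 0.694 to 0.889) and 1.22 (1.04 to 1.43). TRIM56, a ubiquitin ligase that acts on cGAS and STING, had 86.2 and 120.1 CPM in clone 1, 99.1 and 106 CPM in the siRNA control and 65.2 and 65.7 CPM in the control (0.66 over the control and 0.01 over the siRNA control). IRF3 and TRIM56 lay above the control without overlap, whereas STING overlapped it, and TRIM56 overlapped the siRNA control.

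MHC class I genes, which present peptides to T cells, had 16 of 21 members tested and a median of 0.23 (0.03 against the siRNA control), and 6 were higher in clone 1 without overlap, beside 20.8% of all genes. HLA-E, the ligand of the NKG2A receptor, had 37.4 and 38.8 CPM in clone 1 and 18.8 and 19.8 CPM in the control (0.98, SE 0.41), but 41.2 and 51.9 CPM in the siRNA control. HLA-C had 127 and 146 CPM in clone 1 and 82.9 and 120.3 CPM in the control, and HLA-B 30.3 and 51.3 CPM in clone 1 and 42.02 and 47.1 CPM in the control. The classical HLA genes are near-identical in parts, so the split of reads among them is uncertain. Checkpoint ligands and their regulators, with 14 of 25 members tested, had a median of 0.03. At an unadjusted p under 0.05, 0 were higher and 0 lower, beside 4.62% and 3.57% of all genes tested.

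Mesenchymal and matrix genes had the next highest median. Of 40 listed, 24 were tested, the median was 0.45, and 18 were above 0. At an unadjusted p under 0.05, 2 were higher and 2 lower, among the lower SPARC, beside 4.62% and 3.57% of all genes tested. Without overlap, 8 were higher and 3 lower, beside 20.8% and 18.4% of all genes tested. Against the siRNA control the median was 0.56, also with 18 above 0. S100A4, a calcium-binding protein of motile cells, had 81.4 and 67.2 CPM in clone 1 and 17.7 and 39.7 CPM in the control (1.38, SE 0.40, adjusted p = 0.296). COL6A2, a chain of collagen VI, had 109 and 102 CPM in clone 1 and 57.5 and 63.3 CPM in the control (0.81, SE 0.33). THBS1, the matrix protein thrombospondin, had 4.75 and 6.55 CPM in clone 1, 13.1 and 13.3 CPM in the siRNA control and 1.11 and 2.48 CPM in the control, and its log2 fold change of 1.63 turned to -1.21 against the siRNA control. THBS1 was chosen after its values were seen. The sum of the fibroblast markers given above was higher in clone 1 as well, but 7 of the 10 had no count in the 4 libraries. It rested on COL1A1 in replicate 1 and mostly on PDGFRA in replicate 2. COL1A1 had 11.3 and 2.18 CPM in clone 1 and 0 and 6.20 CPM in the control, which overlapped. The part of these markers in the matrix values was not tested.

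**Figure D3:**
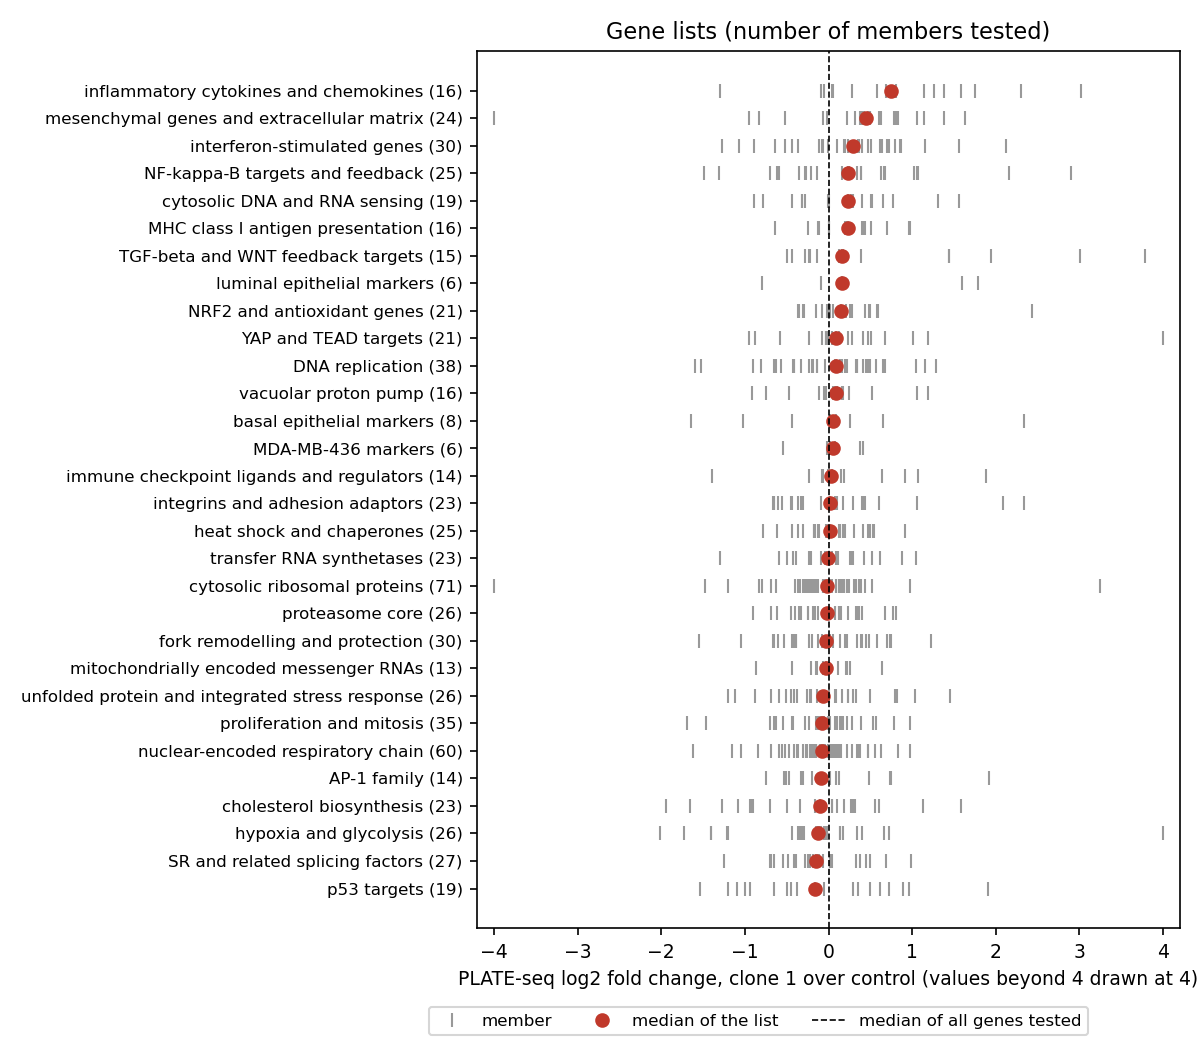
Log2 fold change of clone 1 over control in PLATE-seq for each tested member (grey ticks) of the 30 gene lists with at least 3 members tested, with the list median as a red circle and the number of members tested in brackets. Values beyond 4 in size are drawn at 4, the dashed line is the median of all genes tested, and list medians run from 0.74 for inflammatory cytokines and chemokines to -0.16 for p53 targets.

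TGF-beta and WNT feedback targets had 15 of 31 members tested and a median of 0.16. At an unadjusted p under 0.05, 3 were higher and 0 lower, beside 4.62% and 3.57% of all genes tested. The 3 were DKK1 and WNT7B, given above, and PMEPA1, a TGF-beta target that damps SMAD signalling, with 68.3 and 54.1 CPM in clone 1 and 15.5 and 29.8 CPM in the control (1.44, SE 0.39, adjusted p = 0.246). INHBA, the subunit of activin A, had 41.00 and 19.1 CPM in clone 1 and 15.5 and 6.20 CPM in the control, and WNT5A, a non-canonical WNT ligand, 13.7 and 0.546 CPM in clone 1 and 1.11 and 2.48 CPM in the control.

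Genes of the process in which SMARCAL1 acts lay near the median of all genes. Fork remodelling and protection genes had 30 of 40 members tested, a median of -0.03 and 0 at an unadjusted p under 0.05 in either direction. DNA replication genes had 38 of 43 tested and a median of 0.08. At that p, 2 were higher and 1 lower, beside 4.62% and 3.57% of all genes tested. Among these was MCM7, a subunit of the replicative helicase, chosen with its values known. It had 177 and 175 CPM in clone 1 and 122 and 102 CPM in the control (0.66, SE 0.30). DUT, TYMS and MCM4, the list members of highest CPM, had ratios of counts of clone 1 to control of 1.09, 0.831 and 0.897. Proliferation genes had all 35 tested and a median of -0.08, with 2 higher and 3 lower at that p, beside the same shares of all genes. PLK1, a mitotic kinase, had 748 and 661 CPM in clone 1 and 237 and 583 CPM in the control, and CDC20, an activator of the anaphase-promoting complex, 203 and 179.7 CPM in clone 1 and 321 and 303 CPM in the control, so that the pair pointed in opposite directions. Among p53 targets, with 19 of 28 tested and a median of -0.16, the cell cycle inhibitor CDKN1A had 112 and 89.6 CPM in clone 1 and 33.2 and 70.7 CPM in the control (0.96, SE 0.39), and GADD45A 31.5 and 36.6 CPM in clone 1 and 43.1 and 53.3 CPM in the control.

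The same clone was read in TruSeq, at 10257584 to 19270648 counts a library, where 1089 of 17371 genes (6.27%) passed the threshold, 688 higher (3.96%) and 401 lower (2.31%) in clone 1. That count rested on single libraries, being 199 without control replicate 2, 518 without control replicate 1, 369 without clone 1 replicate 2 and 309 without clone 1 replicate 3. The TruSeq libraries also split by the number of entries detected, which was 37939 in clone 1 replicate 1 and 39068 and 36042 in control replicates 1 and 2, against 28621 and 30653 in clone 1 replicates 2 and 3 and 30522 in control replicate 3. The part of this split in the TruSeq values was not tested. TruSeq served as a second reading of the PLATE-seq values, with no test between the assays. Of the 1089, 713 were tested in PLATE-seq (8.72% of genes tested in both assays), and 553 of them (77.6%, Wilson 95% interval 74.4 to 80.5%) had a PLATE-seq fold change of the same sign, beside 59.9% of all 8177 genes tested in both assays. Genes of 1 sample are not independent, so this interval describes counting only. The share was 77.4% for genes that rose in TruSeq and 77.9% for those that fell. At 50 CPM or more in PLATE-seq it was 87.8% (151 of 172), beside 63.2% of all genes at that level, and for TruSeq changes of at least 1 on the log2 scale it was 45 of 50. Of the 133 genes past the TruSeq threshold that also had an unadjusted PLATE-seq p under 0.05, 130 had the same sign. Of all 667 genes tested in both assays with such a PLATE-seq p, whatever their TruSeq p, 514 (77.1%) did.

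**Figure D4:**
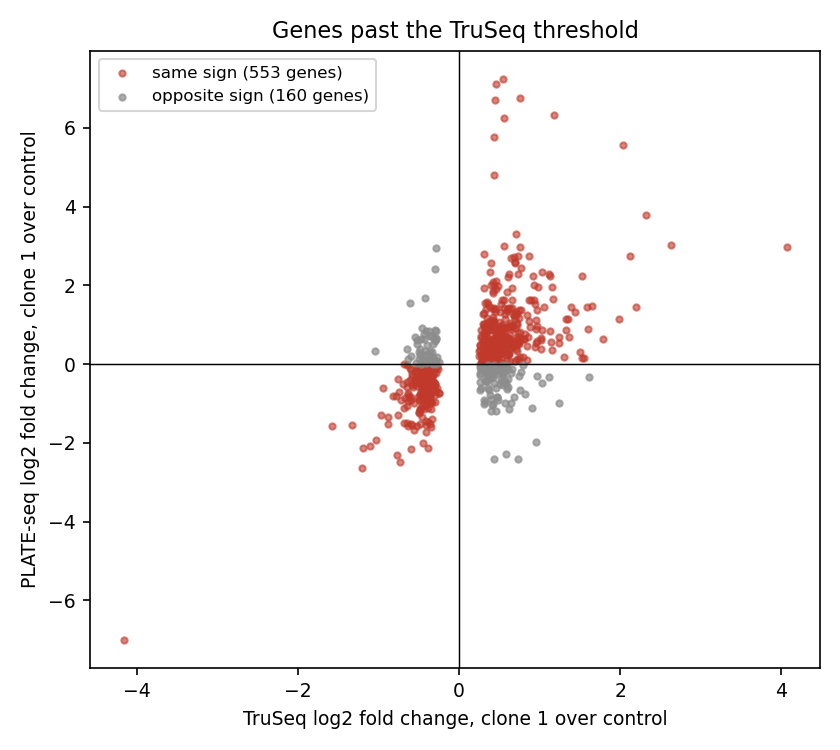
Log2 fold change of clone 1 over control for the 713 genes past the TruSeq threshold and tested in PLATE-seq, with TruSeq on the horizontal and PLATE-seq on the vertical axis and 1 point a gene. Red points have the same sign in both assays (553 genes) and grey ones the opposite sign (160 genes), and PLATE-seq values beyond 4 in size belong to genes with few or no counts in one group.

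The highest PLATE-seq genes kept their direction in TruSeq and the lowest did so in part. All 11 of the 12 highest that were tested in TruSeq had the same sign there, and 8 of them had risen past its threshold, namely DKK1, TMEM14B, TMEM158, IL7R, DPYSL3, PLAU, EREG and LCN2. Of the 12 lowest, 8 had the same sign and 4 had fallen, namely VGF, ACADM, CUL4A and BEX1. No ranked gene passed the TruSeq threshold in the opposite direction. The TruSeq changes were often smaller, with 0.55 for DKK1 (SE 0.07, adjusted p = 0.00402) and 0.56 for IL7R (SE 0.07, adjusted p = 0.00433), beside 3.01 and 1.64 in PLATE-seq. LCN2 was nearly alike, with 1.65 in TruSeq (SE 0.09) and 1.48 in PLATE-seq. Near or above 0 in TruSeq were HMGN1 (0.04), ZCCHC7 (0.02), BRD3 (0.37) and CD109 (0.25), against -1.79, -2.28, -1.63 and -3.36 in PLATE-seq.

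The largest TruSeq rises at 20 CPM or more were followed in PLATE-seq. COL8A1, a short-chain collagen, rose in TruSeq to 55.2, 60.5 and 63.6 CPM in clone 1, against 13.8, 13.9 and 13.4 CPM in the control, and gave 77 and 30 counts in clone 1 and 8 and 0 in the control in PLATE-seq (log2 fold change 2.74, SE 0.92, adjusted p = 0.402). DPP4, a surface peptidase that trims chemokines, rose to 63.9, 53.4 and 57.01 CPM in clone 1, against 14.8, 13.2 and 14.4 CPM in the control, and gave 67 and 43 PLATE-seq counts in clone 1 and 0 and 1 in the control. The ratio of its PLATE-seq counts was 52.6, with a counting interval of 9.25 to 2097, and its adjusted p was 0.0807. That ratio rests on 1 count in the control. The siRNA control gave 11 and 6 counts of DPP4, and the log2 fold change of 5.56 over the control was 2.20 over the siRNA control (edgeR adjusted p = 0.585). IRS1, an adaptor of the insulin and IGF receptors, rose by 1.98 in TruSeq and stood at 9.51 and 10.9 CPM in clone 1 and 7.74 and 1.24 CPM in the control in PLATE-seq. KRT17, a basal keratin with near-identical relatives, had a TruSeq rise of 1.78 and a PLATE-seq value of 0.65, with overlapping PLATE-seq groups.

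Among the largest TruSeq falls, SPARC, a secreted matrix glycoprotein, stood out in both assays. In TruSeq it fell to 4.36, 4.06 and 6.16 CPM in clone 1, against 86.4, 83.7 and 92.1 CPM in the control. In PLATE-seq it gave 0 and 0 counts in clone 1 and 6 and 12 in the control, for which the upper limit of the ratio of clone 1 to control, by counting error alone, was 0.109. ADAM19, a membrane protease, fell by 1.57 in TruSeq and had 5.35 and 9.83 CPM in clone 1 and 25.4 and 19.8 CPM in the control in PLATE-seq (-1.56, SE 0.68). GREM1, a secreted BMP antagonist, fell by 1.19 in TruSeq and gave 4 and 4 counts in clone 1 and 4 and 13 in the control in PLATE-seq. MAL2, a protein of membrane traffic, fell in TruSeq (-1.04) but had 20.2 and 3.28 CPM in clone 1 and 11.1 and 7.44 CPM in the control in PLATE-seq, where clone 1 lay on both sides of the control.

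The cytokine list kept its direction across the assays. In TruSeq 19 of its members were tested, of which 10 rose and 1 fell, beside 3.96% and 2.31% of all genes tested there. The 10 of these calls that were tested in PLATE-seq all had the same sign there, in a list chosen with these results known. CCL2 rose in TruSeq by 2.63 (SE 0.26), CXCL1 by 0.84, CXCL8 by 0.77, IL1A by 0.70 and LIF by 0.62, while IL11 fell (-0.97). Over all TruSeq calls tested in PLATE-seq, the share with the same sign was 77.6%. The same held for 12 of 13 matrix genes and for all 5 TGF-beta and WNT feedback targets past the TruSeq threshold and tested in PLATE-seq, but for 5 of 7 NF-kappa-B genes, 3 of 5 integrin and adhesion genes, 1 of 2 MHC class I genes and 0 of 1 fork gene. The 4 interferon-stimulated genes that passed in TruSeq and were tested in PLATE-seq had the same sign, among them SAMD9 with 1.36 in TruSeq and 1.15 in PLATE-seq. BST2, the interferon-induced tetherin, fell in TruSeq (-1.87) and lay below the PLATE-seq filter. HLA-B rose in TruSeq (0.38, adjusted p = 0.0492) and was -0.12 in PLATE-seq, and TNFAIP3 rose by 0.46 in TruSeq, against -0.61 in PLATE-seq.

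The last comparison asked how clone 1 differed from the other knockout clones, with no control library in the contrast. Against the mean of clones 2 and 3, 10 of 8595 genes (0.116%) passed, 7 higher (0.0814%) and 3 lower (0.0349%) in clone 1. Against clone 2 alone 0 genes passed (0%), by edgeR, with 438 (5.1%) at an unadjusted p under 0.05, and against clone 3 alone 40 passed (0.465%), all 10 among them. Omitting clone 3 replicate 2, the library that stood apart, gave 8 calls, all among the 10. Omitting clone 2 replicate 2 gave 3 calls, all among the 10. Omitting clone 2 replicate 1 gave 6 and omitting clone 1 replicate 2 gave 6, each with 5 of the 10, and omitting clone 1 replicate 1 gave 8 with only 3 of the 10. Omitting clone 3 replicate 1 gave 13, with 6 of the 10. IL1A and SAA1 passed in each of the 6 omissions of 1 library. Against the control itself, 3 genes passed for clone 2 and 57 for clone 3, in contrasts that share the control libraries with clone 1.

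IL1A rose in clone 1 relative to the other clones, with 955 and 851 CPM in clone 1, 305 and 441 CPM in clone 2 and 76.4 and 122 CPM in clone 3 (log2 fold change 2.23 over their mean, SE 0.23, adjusted p = 7.00e-06). The order of the clones held without overlap, and the control, at 338 and 484 CPM, lay at the level of clone 2. SAA1, an acute-phase apolipoprotein with a near-identical copy, SAA2, had 430.2 and 532 CPM in clone 1, 343 and 401 CPM in clone 2 and 59.99 and 40.4 CPM in clone 3 (1.82, SE 0.24, adjusted p = 2.47e-04). Only clone 3 was low, and clone 1 overlapped the control at 341 and 464 CPM. CSF3 had 796 and 602 CPM in clone 1, 267 and 526 CPM in clone 2 and 197 and 254 CPM in clone 3 (1.23, SE 0.23, adjusted p = 0.0229). CCL2 had 41.6 and 25.7 CPM in clone 1, 7.28 and 10.2 CPM in clone 2 and 2.67 and 0.304 CPM in clone 3 (3.24, SE 0.61, adjusted p = 0.0229). Clone 1 was above every library of the other clones for CCL2 and CSF3 too, and for CCL2 also above the control.

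EDN1, the vasoconstrictor endothelin, had 51.1 and 47.5 CPM in clone 1, 39.5 and 43.03 CPM in clone 2 and 0 and 2.13 CPM in clone 3 (2.76, SE 0.53, adjusted p = 0.0229). COL8A1 and TENM2, a teneurin of cell adhesion, were at or near 0 in clone 3 and present in the other clones. COL8A1 gave 77 and 30 counts in clone 1, 26 and 10 in clone 2 and 0 and 0 in clone 3, and TENM2 23 and 54 in clone 1, 14 and 11 in clone 2 and 0 and 2 in clone 3. In both genes clone 1 overlapped clone 2. For TENM2 clone 1 also overlapped the control, at 19.9 and 27.3 CPM (log2 fold change over the control -0.12). The fitted differences were 4.63 for COL8A1 (adjusted p = 0.0229) and 3.19 for TENM2 (adjusted p = 0.0229), and with clone 3 near 0 their size depends on the prior count of the fit. IL24 fell in clone 1 (-2.88, SE 0.51, adjusted p = 0.0192), with 2.97 and 3.28 CPM in clone 1, 10.4 and 14.3 CPM in clone 2 and 49.3 and 40.99 CPM in clone 3. LSM1, a ring protein of messenger RNA decay, had 41.00 and 46.4 CPM in clone 1, 128 and 98.4 CPM in clone 2 and 245 and 111 CPM in clone 3 (-1.69, adjusted p = 0.0479), and its exons overlap BAG4. The symbol Y_RNA stands for many near-identical small RNA copies. It gave 13 and 87 counts in clone 1, 75 and 412 in clone 2, 792 and 1385 in clone 3 and 34 and 6 in the control. It was lower in clone 1 than in the other clones (-3.48, SE 0.67, adjusted p = 0.0229), although its replicates were far apart. Against the control its ratio of counts was 1.20, with a counting interval of 0.821 to 1.77.

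**Figure D5:**
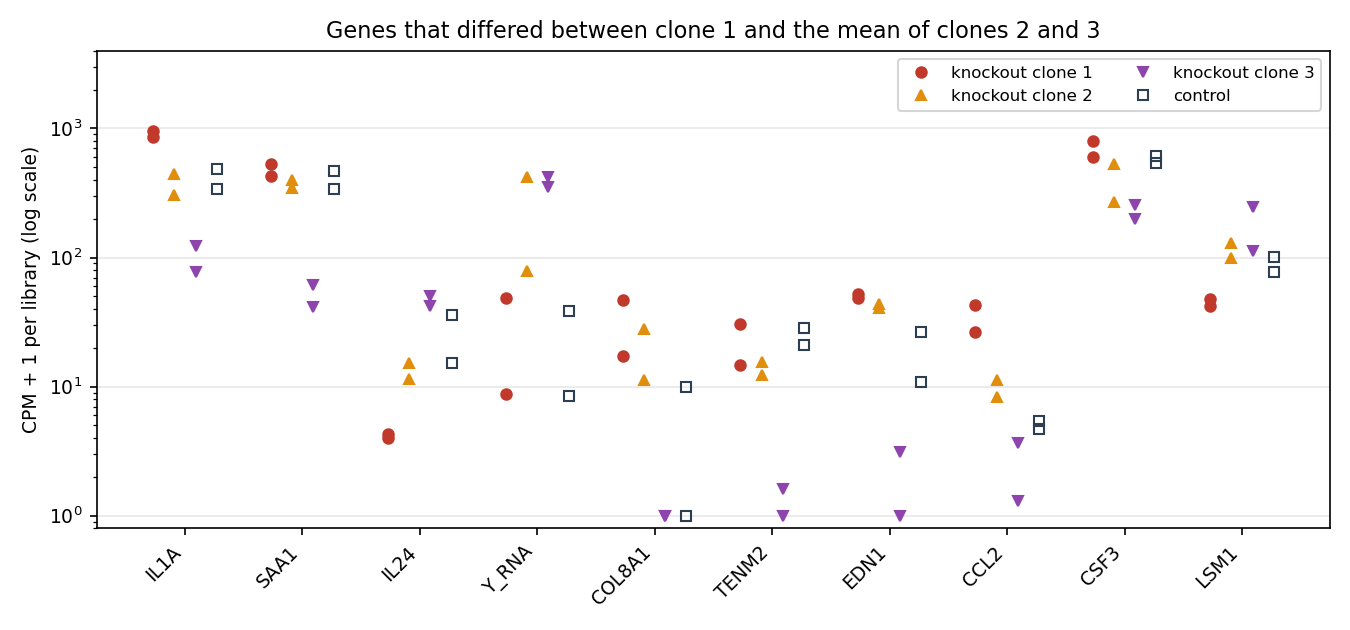
CPM plus 1 on a log axis in each PLATE-seq library for the 10 genes past the threshold between clone 1 and the mean of clones 2 and 3, with circles for clone 1, upward triangles for clone 2, downward triangles for clone 3 and open squares for the control. SAA1 stands at 430.2 and 532 CPM in clone 1, 343 and 401 in clone 2, 59.99 and 40.4 in clone 3 and 341 and 464 in the control.

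The levels of some ranked genes in all 3 clones are given side by side, as values only, since the contrasts of the clones share the control libraries. DKK1 had 105 and 55.7 CPM in clone 1, 83.2 and 216 CPM in clone 2, 106 and 35.5 CPM in clone 3 and 11.1 and 8.68 CPM in the control. IL7R had 398 and 267 CPM in clone 1, 265 and 232 CPM in clone 2, 212 and 281 CPM in clone 3 and 111 and 103 CPM in the control. For DKK1, IL7R, PLAU and TMEM158 every library of a clone was above both control libraries. The siRNA control lay below every clone library for IL7R and PLAU. It overlapped clones 1 and 3 for DKK1, at 72.8 and 19.7 CPM, and for TMEM158, at 75.4 and 112 CPM. Clone 3 differed for LCN2, WNT7B and VGF. LCN2 stood at 25.8 and 9.41 CPM, WNT7B at 1.33 and 1.52 CPM and VGF at 158 and 219.8 CPM in clone 3, at or beyond the control. In clone 2, LCN2 stood at 74.9 and 111 CPM, WNT7B at 38.5 and 24.6 CPM and VGF at 34.3 and 30.7 CPM, on the side of clone 1. DPP4 had 39.8 and 23.5 CPM in clone 1, 28.1 and 11.3 CPM in clone 2, 8.44 and 2.13 CPM in clone 3 and 0 and 1.24 CPM in the control, so each clone library was above both control libraries. The siRNA control, at 9.64 and 4.21 CPM, lay below clones 1 and 2 and overlapped clone 3 for DPP4.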

How the data were processed

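RNA was counted per gene in 18 libraries, of which the 2 PLATE-seq libraries of clone 1 and the 2 of the control are reported here. The files as deposited hold unnormalised read counts for each gene symbol. Per the submitters' processing notes, the tools were STAR and HTSeq and the genome build was hg38. The versions, annotation and strand setting are not given in the sources used here. Counting without strand would merge reads of overlapping genes on opposite strands.

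Of 44359 PLATE-seq entries, 92 spike-ins were left out, as were 28 symbols turned into dates from the naming of genes. Genes were filtered with filterByExpr, which left 8595, scaled by TMM and tested with edgeR 4.0.16 (quasi-likelihood F test, R 4.3.3) in 1 fit of all 12 PLATE-seq libraries by group, with Benjamini-Hochberg adjustment over all genes and a threshold of 0.05. The 6 TruSeq libraries had a fit of their own. The standard error was taken as the size of the log2 fold change over the root of F, and CPM used TMM-scaled library sizes. The procedure was tested on simulated counts. PLATE-seq totals ran from 807872 to 3068902, and counting intervals cover counting error only. Replicate 1 and replicate 2 of clone 1 and the control did not deviate together (correlation -0.04 over 2210 genes), so the numbers were not taken to pair libraries.

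Named genes were SMARCAL1 and CD274, the 12 highest and 12 lowest by fold change at 50 CPM or more in the higher group without overlap, up to 3 members of highest CPM in each of 33 lists, the 6 largest TruSeq rises and falls at 20 CPM or more, and all genes past the threshold against clones 2 and 3. A few genes the rule names are not reported here. The members and lists were chosen with earlier results of these data known. Positions came from GENCODE on GRCh38 by symbol, and promoter windows from RefSeq on GRCh38.p14. Alternatives were other scalings and filters, the replicate block, DESeq2 1.42.0, limma-voom 3.58.1, the 4 libraries alone, leaving out each library and the siRNA control as the reference. The mean of both controls, clone 2 or clone 3 alone, and limma-voom against the clones were added after seeing the data.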

Additional observations from a re-analysis of the deposited data

Results flagged for a closer look

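The difference of clone 1 from the mean of clones 2 and 3 was itself tested, by edgeR's quasi-likelihood test, and 10 genes passed at an adjusted p of 0.05. On the log2 scale of clone 1 over the other clones, the 7 higher genes stood at 2.23 for IL1A, 1.82 for SAA1, 4.63 for COL8A1, 3.19 for TENM2, 2.76 for EDN1, 3.24 for CCL2 and 1.23 for CSF3. The 3 lower genes stood at -2.88 for IL24, -3.48 for Y_RNA and -1.69 for LSM1. No group held enough libraries for a test of single libraries that stand apart.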

How the results depend on the processing

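Clone 1 against the control gave 0 calls under upper-quartile factors, library totals, a filter of 10 CPM, the replicate block, limma-voom and the 4 libraries alone. It gave 36 with no filter, 18 by DESeq2, 7 against the siRNA control, 10 against both controls and 0 to 3 with 1 library left out. Members called in any list were 7 with no filter, 2 by DESeq2, 1 against the siRNA control, 1 against both controls and 0 to 1 with 1 library left out, against 0 otherwise. Clone 1 against clones 2 and 3 gave 10 calls with library totals and with the replicate block, 14 by DESeq2, 7 by limma-voom, 34 with no filter, 0 against clone 2 alone, 40 against clone 3 alone and 3 to 13 with 1 library left out. The count of TruSeq knockout clone 1 against control was 1285 with no filter, 1306 by DESeq2, 2387 with the replicate block and 199 to 1145 with 1 library left out. TruSeq deviations correlated at 0.861, -0.545 and 0.751 for replicates 1, 2 and 3, so the numbers were not taken as pairs, and clone 1 replicate 2 went best with control replicate 3. The share of TruSeq calls with the same PLATE-seq sign was 77.3% with library totals, 77.1% with the block, 87.8% at 50 CPM or more and 73.0 to 74.6% with 1 library left out. The replicate block changed no other call. Of 99 genes named, 78 kept the direction of clone 1 against the control in every alternative. Against the siRNA control the log2 fold change turned to -1.18 for SMARCAL1, -1.69 for CD274, 0.23 for BRD3, 0.74 for CD109, -1.04 for CSF3, -0.33 for EIF3K, -0.96 for MAL2, 0.20 for TENM2, -0.030 for IL32, 0.36 for HLA-B, -0.43 for ATP6V0B, 0.31 for SRSF3, -0.29 for HLA-E, -1.21 for THBS1, -0.87 for IL6, -0.0014 for NFKBIA, -1.18 for CXCL2, -0.32 for IL1B and -0.14 for MB21D1. Against both controls it turned to -0.35 for SMARCAL1, -0.83 for CD274, -0.38 for CSF3, -0.32 for MAL2, 0.041 for TENM2, 0.12 for HLA-B, -0.032 for IL6 and -0.13 for IL1B. With 1 library left out it ran from -0.52 to 5.02 for SMARCAL1, -0.65 to 1.61 for CD274, -0.77 to 0.33 for TENM2, -0.15 to 0.44 for IFITM3 and -0.29 to 0.42 for TMEM173, -1.47 to 1.12 for MAL2 and -0.55 to 0.21 for HLA-B, and -0.12 to 0.28 for IL1B. MAL2 stood at -0.25 by limma-voom, and TMEM173 at -0.020 with library totals, -0.014 by DESeq2 and -0.00086 with the 4 libraries alone. The cause of these shifts was not tested. A lone library left in a group was assumed to vary like the other groups. Depth limits what the PLATE-seq counts can show for genes of a few counts.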

Other observations

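Some abundant or well-separated genes outside the comparisons above also differed from the control without passing the threshold, and all were chosen after their values were seen. ATP6V0B, a membrane subunit of the vacuolar proton pump, had 531 and 596 CPM in clone 1 and 215 and 279 CPM in the control, with a log2 fold change of 1.19 (SE 0.26, edgeR adjusted p = 0.103). DESeq2 called it, but it was -0.18 in TruSeq and stood at 923 and 594 CPM in the siRNA control. The other 15 pump genes tested ran from -0.92 to 1.06. NEAT1, the long noncoding RNA of paraspeckles, had 314 and 241 CPM in clone 1 and 868 and 554 CPM in the control (-1.36, SE 0.30). In TruSeq it had 1034, 231 and 223 CPM in clone 1 and 1222, 1283 and 242 CPM in the control, a split that went with the number of entries detected and not with the group. PABPC4, a cytoplasmic poly(A)-binding protein, had 80.2 and 95.01 CPM in clone 1 and 275 and 171 CPM in the control, and fell in TruSeq (-0.46, adjusted p = 0.00798).

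PLOD3, an enzyme that modifies collagen lysines, had 107 and 129 CPM in clone 1 and 35.4 and 53.3 CPM in the control (1.41, SE 0.35) and rose in TruSeq (0.66, adjusted p = 0.00420). TPTEP1, a pseudogene transcript, had 256 and 168 CPM in clone 1 and 86.3 and 78.1 CPM in the control and rose in TruSeq (0.74, adjusted p = 0.00648). SRSF3, a splicing factor, had 111 and 119.6 CPM in clone 1 and 391 and 159 CPM in the control, but 64.9 and 121 CPM in the siRNA control. Among 13 mitochondrially encoded messenger RNAs, MT-ND3, a subunit of respiratory complex I, had 43360 and 50153 CPM in clone 1 and 28404 and 31637 CPM in the control (0.64, SE 0.20), while the list's median was -0.04. HSP90AA1, a heat shock chaperone, had 943 and 1201 CPM in clone 1 and 1763 and 1923 CPM in the control (-0.78, SE 0.24).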
